A study of Mus musculus with 6 samples.

Results

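The bone morphogenetic protein (BMP) genes described here are 10 of the 14860 gene symbols measured on the array: the ligand genes Bmp2, Bmp4 and Bmp7, the antagonist genes Sostdc1, Fst, Grem1 and Nog, and the target genes Id1, Id2 and Id3. They were taken by symbol from the platform annotation, and each of the 10 had 1 transcript cluster, which groups the exon probes of a gene. Sostdc1 was included because it was among the strongest rises of the α3-null line, so its high level there, and the difference between the null and wild-type lines for every one of the 10 genes, is given as a description, and no result rests on it.

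RNA came from 3 lines of mouse epidermal keratinocytes that differ in integrin α3β1, a laminin receptor. The rescue line (MK546 with human α3, stably transfected) was derived from the α3-null line (MK546), which itself came from α3-null newborn mice; the wild-type line (MK116) came from wild-type newborn mice. All 3 lines were immortalized with SV40 large T antigen, an oncoprotein that blocks p53 and Rb. They were kept on denatured collagen in low-calcium medium with hydrocortisone, insulin, interferon-γ and EGF, and no BMP is named among the additions. Each line was measured on 2 arrays, 6 in all, and stands for 1 derivation of its kind, so a difference between lines may include anything else in which they differ. Values are PLIER intensities, the array software's summary of the probes of a cluster, and means are given ± SD (n = 2 arrays).

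BMPs are secreted ligands of the TGF-β superfamily. They bind type I and type II serine/threonine kinase receptors, which phosphorylate Smad1, Smad5 and Smad9. These join Smad4, enter the nucleus and switch on genes such as the Id genes, whose products bind E proteins and block them from DNA. Antagonists bind the ligands outside the cell. In skin, BMP signals keep hair follicle stem cells quiescent, and noggin, the product of Nog, favours the formation of hair follicles.

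The arrays were comparable, with median intensity from 96.6 to 108 and Pearson's r of 0.990 to 0.991 between the arrays of a line (log2 scale, across clusters). Itga3, the deleted gene, averaged 1219 ± 2.04 in the rescue line, 952 ± 63.2 in the null line and 6325 ± 54.1 in the wild-type line; the mouse probes may read the human α3 cDNA only in part. Of 13 keratinocyte markers, 12 lay above the array median on all 6 arrays, among them Krt5 (13435 ± 620 in the rescue, 13784 ± 558 in the null and 14652 ± 315 in the wild-type line) and Krt14. None of 6 endothelial, 5 immune and 5 melanocyte markers did. On all 6 arrays, 4 of 10 dermal fibroblast, 3 of 8 hair follicle and 1 of 8 dermal papilla markers also lay above it. The keratinocyte marker with the widest difference between lines was Dsc3. It averaged 582 ± 51.2 in the rescue, 4210 ± 235 in the null and 4264 ± 107 in the wild-type line. The summed level of 10 dermal fibroblast markers was 991 and 916 in the rescue line, 1008 and 976 in the null line, and 2125 and 1833 in the wild-type line. Most of that gap was vimentin (Vim), which averaged 163 ± 23.8 in the rescue, 142 ± 7.66 in the null and 1070 ± 184 in the wild-type line; the other 9 summed to 811 and 770, 871 and 829, and 925 and 894.

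The 2 Id genes that differed most from the wild-type line, Id2 higher and Id3 lower, are shown first. They are given by the 250 bases before their start sites, from the RefSeq promoter table of build GRCm38.p6. Of the 10 genes, 4 had an entry there. Capitals mark the GC-rich motif GGCGCC, known as a site of Smad1 and Smad5, and the Smad box GTCT or its reverse complement AGAC. Id2 lies at chr12:25096093-25096342 on the minus strand and Id3 at chr4:136143572-136143821 on the plus strand, both read 5′ to 3′.
Id2: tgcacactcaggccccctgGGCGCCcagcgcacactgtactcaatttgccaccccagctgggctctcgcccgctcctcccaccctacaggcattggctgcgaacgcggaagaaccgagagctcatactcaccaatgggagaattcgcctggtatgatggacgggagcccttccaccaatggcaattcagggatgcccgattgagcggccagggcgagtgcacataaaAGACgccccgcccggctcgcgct
Id3: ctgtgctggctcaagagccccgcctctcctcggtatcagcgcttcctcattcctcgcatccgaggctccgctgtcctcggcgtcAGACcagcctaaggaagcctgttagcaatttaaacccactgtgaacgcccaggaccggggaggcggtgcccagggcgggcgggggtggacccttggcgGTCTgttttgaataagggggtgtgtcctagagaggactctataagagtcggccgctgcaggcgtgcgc
The Id2 window held 1 GGCGCC, at base -231 from the start site, and 1 Smad box at -23, while the Id3 window held 0 GGCGCC and 2 Smad boxes, at -166 and -68. Among 32851 windows of the same length and searched on both strands, 9.6% held GGCGCC and 82.9% held a Smad box, so the box by itself sets neither gene apart. The Id2 and Id3 windows were each 62.8% GC, beside a median of 52.4% over all windows, so the 9.6% is not matched for GC. Of the genes with an entry that are not shown, Grem1 held 1 GGCGCC and 4 Smad boxes, and Bmp4 held 0 and 1. The E-box CANNTG, which E proteins bind, had 1 match in the Id2 window and 0 in the Id3 window, and was in 66.2% of all windows. The matches of different motifs did not overlap. These matches are letters in a window and were not tested for binding.

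Among the antagonists, Sostdc1, which encodes a secreted protein that binds BMPs and the Wnt co-receptors LRP5 and LRP6, was the gene with the widest range. It gave 115 and 150 in the rescue line, 13996 and 15080 in the null line, and 134 and 138 in the wild-type line. The null arrays stood far above both other lines, and the rescue and wild-type arrays overlapped. The mean of the null line was 107 times that of the wild-type line (log2 difference 6.58 ± 0.12, SE), and the mean of the rescue line was 0.914% of that of the null line (log2 difference -6.62 ± 0.12); both use the null arrays that chose the gene and are descriptions. Rescue minus wild type gave a log2 difference of -0.04 ± 0.12, with a 95% interval of -0.33 to 0.26. It uses the wild-type arrays, against which the rise of the null line was seen, so it is a description too. Without rescue array 1 that difference was 0.13, so its sign is not settled. Here and below, differences are of log2(intensity + 16), so those of dim genes come out too small, and a difference passed at a limma adjusted p under 0.05 over all 23332 clusters.

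**Figure D1:**
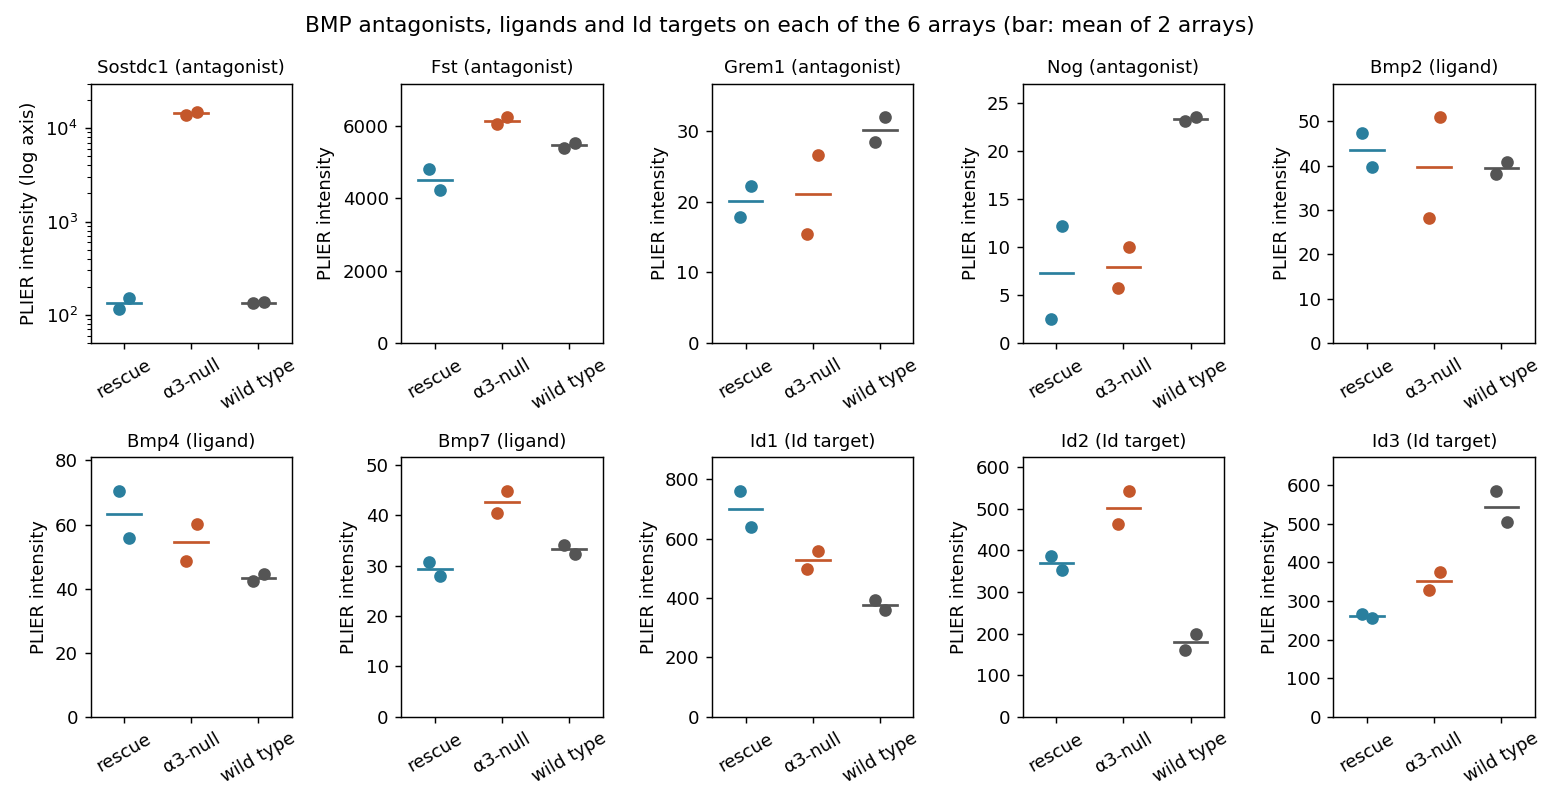
PLIER intensity of each of the 10 genes on the 6 arrays, with rescue, α3-null and wild-type arrays from left to right; points are arrays, bars the mean of 2 arrays, and only the Sostdc1 axis is logarithmic. Sostdc1 sits at 13996 and 15080 on the null arrays and between 115 and 150 on the other 4. The wild-type arrays lie to one side of the rest for Id1, Id2 and Id3, and also for the dim genes Bmp4, Grem1 and Nog.

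Fst, which encodes follistatin, an antagonist of activins and of some BMPs, was bright in every line. Its intensity was 4793 and 4221 in the rescue line, 6035 and 6222 in the null line, and 5381 and 5527 in the wild-type line. The lines did not overlap, with the null line at the top and the rescue line at the bottom. Fst fell in the rescue line relative to the null line (log2 difference -0.44 ± 0.08, limma adjusted p = 0.0173), to 73.5% of the null mean. This call was lost without null array 1 (limma adjusted p = 0.0766), without null array 2 (0.0915) and without the variance trend (0.0519). Relative to the wild-type line the rescue line did not pass (-0.28 ± 0.08, 95% interval -0.47 to -0.08, limma adjusted p = 0.0687), but passed under 5 alternatives, among them quantile normalization (adjusted p 0.0325 from limma), median centring (0.0448) and leaving out rescue array 1 (0.0452). In the same comparison, rescue minus null, 7 of 13 keratinocyte markers fell and 1 rose, against 5.62% of all clusters that fell and 9.75% that rose, and their part in the Fst difference was not tested. The null mean was 6129 ± 132 against 5454 ± 103 in the wild-type line, a log2 difference of 0.17 ± 0.08.

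Grem1 and Nog, which encode the BMP antagonists gremlin 1 and noggin, were dim throughout, below the array median on all 6 arrays. Grem1 gave 17.8 and 22.3 in the rescue line, 15.5 and 26.7 in the null line, and 28.5 and 31.9 in the wild-type line. Nog gave 2.45 and 12.2 in the rescue line, 5.77 and 9.97 in the null line, and 23.1 and 23.5 in the wild-type line. For both genes the rescue and null arrays overlapped and the wild-type arrays lay above them. The log2 difference between rescue and wild type was -0.36 ± 0.19 for Grem1 (limma adjusted p = 0.283) and -0.79 ± 0.24 for Nog (0.0857). Without rescue array 2 the Nog difference was -1.09 and passed (limma adjusted p = 0.0442). Rescue minus null was -0.03 ± 0.19 for Grem1 and -0.06 ± 0.24 for Nog, with 95% intervals of -0.50 to 0.45 and -0.65 to 0.53; the sign of both turned when 1 array was left out.

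The ligand genes were also below the array median on all 6 arrays, so small differences among them are poorly resolved. Bmp2, a ligand that acts in hair follicle cycling, gave 47.4 and 39.8 in the rescue line, 28.3 and 50.9 in the null line, and 38.1 and 40.9 in the wild-type line, and its 3 lines overlapped. Bmp4, a close relative of Bmp2, gave 70.4 and 55.9 in the rescue line, 48.6 and 60.3 in the null line, and 42.3 and 44.5 in the wild-type line. Bmp4 values of the wild-type line lay below those of both other lines, which overlapped each other. Bmp7, which belongs to another subgroup of BMP ligands, gave 30.8 and 28.1 in the rescue line, 40.6 and 44.8 in the null line, and 34.1 and 32.4 in the wild-type line, with the null line highest and no overlap between lines.

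None of the 3 ligand genes passed in rescue minus null or in rescue minus wild type. The closest were Bmp7 in rescue minus null (log2 difference -0.37 ± 0.13, 95% interval -0.68 to -0.06, limma adjusted p = 0.113) and Bmp4 in rescue minus wild type (0.41 ± 0.15, 95% interval 0.04 to 0.78, limma adjusted p = 0.132). For Bmp2 the intervals were -0.40 to 0.65 in rescue minus null and -0.42 to 0.62 in rescue minus wild type. Null minus wild type gave log2 differences of -0.03, 0.24 and 0.25 for Bmp2, Bmp4 and Bmp7, and that of Bmp2 changed sign with median centring (0.05).

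The Id genes encode helix-loop-helix proteins without a DNA-binding region, and they are widely used as readouts of BMP signalling. Id1 gave 760 and 641 in the rescue line, 497 and 560 in the null line, and 395 and 360 in the wild-type line. The lines did not overlap and ran from the rescue line at the top to the wild-type line at the bottom. Id1 rose in the rescue line relative to the wild-type line (log2 difference 0.86 ± 0.11, limma adjusted p = 0.00624); the call was lost without wild-type array 2 (0.80, limma adjusted p = 0.0547). Rescue minus null was 0.39 ± 0.11 (95% interval 0.12 to 0.67, limma adjusted p = 0.0694) and did not pass, but did when clusters below the median one were dropped (0.0269).

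Id2 had another order. It gave 387 and 354 in the rescue line, 463 and 542 in the null line, and 161 and 199 in the wild-type line, so the null line was highest and the wild-type line clearly lowest. Id2 rose in the rescue line relative to the wild-type line (log2 difference 0.99 ± 0.13, limma adjusted p = 0.00614), 2.06 times the wild-type mean. In rescue minus null it was -0.42 ± 0.13 (95% interval -0.74 to -0.11, limma adjusted p = 0.0814), which passed with median centring (-0.54, limma adjusted p = 0.0455) and when clusters below the median one were dropped (0.0307).

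Id3 ran against both in rescue minus wild type, but in rescue minus null it lay lower, like Id2 and unlike Id1. It gave 268 and 256 in the rescue line, 329 and 375 in the null line, and 584 and 504 in the wild-type line, with no overlap and the wild-type line highest. Id3 fell in the rescue line relative to the wild-type line (log2 difference -1.01 ± 0.11, limma adjusted p = 0.00281), to 48.1% of the wild-type mean. For rescue minus null the difference was -0.40 ± 0.11 (95% interval -0.66 to -0.15, limma adjusted p = 0.0543), which passed after quantile normalization (-0.50, limma adjusted p = 0.0218), after median centring (-0.52, 0.0181) and with both filters on dim clusters (0.0393 and 0.0204). In null minus wild type the log2 differences were 0.47 ± 0.11 for Id1, 1.41 ± 0.13 for Id2 and -0.61 ± 0.11 for Id3. These are given as a description, since that comparison was used to choose the genes. It shares the wild-type arrays with rescue minus wild type.

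Counted over the list, 3 of the 9 genes other than Sostdc1 passed in rescue minus wild type, Id1 and Id2 higher and Id3 lower, against 15.4% of all 23332 clusters (10.4% higher and 5.05% lower). In that comparison the arrays of 8 of these 9 genes did not overlap, against 57.6% of all clusters. In rescue minus null 1 of the 9 passed, Fst, which was lower, against 15.4% of all clusters (9.75% higher and 5.62% lower), a share near that background. The arrays of 5 of these 9 genes did not overlap, as in 55.6% of all clusters. For null minus wild type the same fit called 3 of these 9 genes (Id1 and Id2 higher, Id3 lower) against 15.3% of all clusters (8.49% higher and 6.84% lower), and the arrays of 8 did not overlap, beside 56.3% of all clusters, a comparison that was used to choose the genes and from which nothing is read. The median log2 difference was -0.12 over the 9 genes in rescue minus wild type, beside 0.03 over all clusters, and -0.06 over the 9 genes in rescue minus null, beside 0.02. Median centring moved rescue minus null of all clusters to a median of -0.10. The 3 comparisons share arrays, so their calls are not independent of each other.

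**Figure D2:**
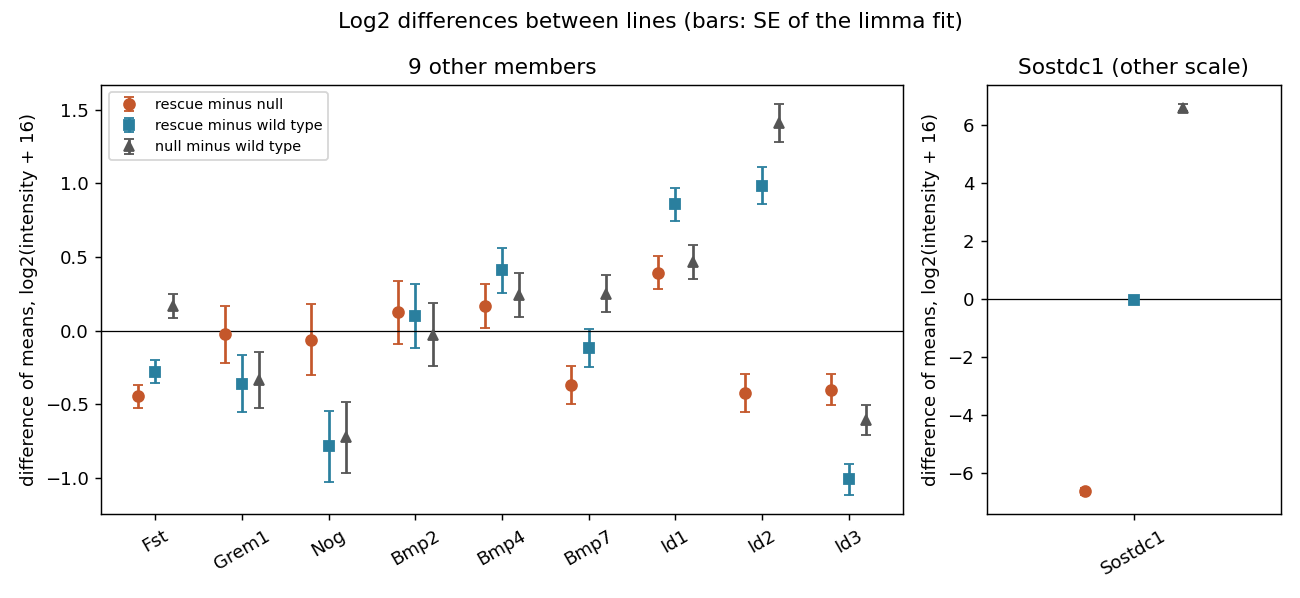
Differences between line means on the log2(intensity + 16) scale with the SE of the limma fit, as rescue minus null (circles), rescue minus wild type (squares) and null minus wild type (triangles), with Sostdc1 on its own scale at the right. Id1 and Id2 lie at 0.86 and 0.99 and Id3 at -1.01 in rescue minus wild type, and Sostdc1 at -0.04.

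The wider pathway was described with a list of 82 other genes grouped by role, of which 74 were measured. In rescue minus null 3 rose and 3 fell, 8.11% of the list against 15.4% of all clusters; in rescue minus wild type 7 rose and 7 fell, 18.9% against 15.4%; in null minus wild type 3 rose and 8 fell, 14.9% against 15.3%. Median log2 differences were 0.00, -0.05 and -0.03, beside 0.02, 0.03 and -0.01 over all clusters. Leaving out 1 array lowered the counts to between 2 and 4, 2 and 9, and 3 and 9, and 7 calls, named stable below, were kept in all 6 of these fits. For each other call the number of fits that kept it is given; without an array, its limma adjusted p reached at most 0.198, for Msx1.

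Of 16 other ligand genes, 1 fell in rescue minus null, 2 fell in rescue minus wild type and 1 fell in null minus wild type. These were 6.25%, 12.5% and 6.25% of the 16, beside 5.62%, 5.05% and 6.84% of all clusters that fell. Inhba, which encodes the activin subunit βA, averaged 67.8 ± 3.32 in the null line against 149 ± 36.6 in the wild-type line (log2 difference -0.96 ± 0.21, limma adjusted p = 0.0310), with a call in 2 of 6 fits without an array and none without the variance trend (0.0550). Gdf3, a TGF-β family ligand gene, was dim, and averaged 6.97 ± 3.58 in the rescue line, 22.0 ± 1.78 in the null line and 22.8 ± 0.317 in the wild-type line. Its falls against the null and the wild-type line (limma adjusted p = 0.0390 and 0.0346) were kept in 0 of 6 such fits each, and were lost with only the compared lines in the fit (0.0786 and 0.0637). Bmp10, a ligand known from the heart, fell in rescue minus wild type (-0.64 ± 0.15, limma adjusted p = 0.0370), with a call in 1 of 6 and none without the variance trend (0.0613).

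Of 14 other antagonist genes, Fstl1 was called, and no other. That is 7.14% of the 14 in each comparison with wild type, beside 5.05% and 6.84% of all clusters that fell. Fstl1, which encodes a secreted follistatin-like protein that binds BMP4, gave 225 and 268 in the rescue line, 206 and 202 in the null line, and 1652 and 1879 in the wild-type line. The rescue and null arrays lay far below the wild-type arrays. The log2 difference was -2.76 ± 0.11 in rescue minus wild type (limma adjusted p = 5.34e-05) and -3.02 ± 0.11 in null minus wild type (limma adjusted p = 4.10e-05), both stable, and 0.25 ± 0.11 in rescue minus null (limma adjusted p = 0.188). Fstl1 is also abundant in fibroblasts. Among the 10 dermal fibroblast markers, Vim fell with it in both comparisons and the other 9 did not pass, and the part of such cells in the Fstl1 difference was not tested. Fewer cells of a type and less RNA per cell cannot be told apart in these bulk samples.

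Of 3 genes for proteases that cleave the antagonist chordin, 0 passed in rescue minus null, 1 fell in rescue minus wild type and 2 fell in null minus wild type. Beside these few genes, 5.62%, 5.05% and 6.84% of all clusters fell. One of them, Tll1, was dim, below the array median on all 6 arrays. Tll1 averaged 43.8 ± 0.856 in the rescue line, 47.0 ± 0.930 in the null line and 76.8 ± 0.381 in the wild-type line, and fell against wild type in both (log2 differences -0.63 and -0.56, limma adjusted p = 0.0149 and 0.0210), with a call in 2 of 6 fits without an array each. Bmp1, which despite its name encodes a metalloprotease, fell in null minus wild type (-0.27 ± 0.06, limma adjusted p = 0.0317; 2 of 6), a call lost with median centring (0.121).

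Of 13 receptor and co-receptor genes, 1 rose in rescue minus null, 3 rose in rescue minus wild type and 2 rose in null minus wild type, and 0 fell. These were 7.69%, 23.1% and 15.4% of the 13. Of all clusters, 9.75%, 10.4% and 8.49% rose and 5.62%, 5.05% and 6.84% fell. Tgfbr3 encodes betaglycan, a co-receptor that presents TGF-β, inhibin and BMP ligands. It gave 264 and 291 in the rescue line, 102 and 83.4 in the null line, and 112 and 105 in the wild-type line. The rescue arrays stood apart from the other 4, and the log2 difference was 1.44 ± 0.12 in rescue minus null (limma adjusted p = 0.00155) and 1.24 ± 0.12 in rescue minus wild type (limma adjusted p = 0.00202), both stable. Acvr2a, an activin and BMP type II receptor gene, averaged 655 ± 67.7 in the rescue, 657 ± 0.114 in the null and 472 ± 21.9 in the wild-type line, and rose against wild type in both (0.46 and 0.46, limma adjusted p = 0.0236 and 0.0213; 3 and 2 of 6). Bmpr2, the BMP type II receptor gene, rose in null minus wild type (0.42 ± 0.09, limma adjusted p = 0.0258; 2 of 6), and the type I receptor gene Bmpr1b rose in rescue minus wild type (0.46 ± 0.09, limma adjusted p = 0.0262; 0 of 6). The Acvr2a and Bmpr2 calls were lost without the variance trend (between 0.0542 and 0.0628), and that of Bmpr1b with only the compared lines (0.0506).

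Smad1, a gene for a mediator that BMP receptors phosphorylate, gave 305 and 350 in the rescue line, 610 and 638 in the null line, and 491 and 579 in the wild-type line. The rescue line was lowest, with no overlap between lines. Smad1 fell in rescue minus null (log2 difference -0.90 ± 0.11, limma adjusted p = 0.00553), a stable call, and in rescue minus wild type (-0.68 ± 0.11, limma adjusted p = 0.0124), which was lost without wild-type array 2 (0.0765) and without rescue array 1 (0.0617). Smurf1, which encodes a ubiquitin ligase that targets Smad1 and Smad5, averaged 1699 ± 85.3 in the rescue, 1345 ± 19.0 in the null and 1361 ± 31.0 in the wild-type line. It rose in both rescue comparisons (0.33 and 0.32, limma adjusted p = 0.0237 and 0.0279; 1 of 6 each), and both calls were also lost with median centring (0.0997 and 0.0519). The other 9 genes of this group did not pass in any comparison. Thus 1 of the 11 rose and 1 fell in each rescue comparison, 18.2% of the group beside 15.4% of all clusters called in each. In null minus wild type 0 passed, beside 15.3% of all clusters. Chosen after the values were seen, the feedback genes Smad6, Smad7 and Bambi, also known as BMP targets, had log2 differences of 0.04, 0.26 and 0.01 in rescue minus wild type (limma adjusted p = 0.902, 0.141 and 0.960).

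**Figure D3:**
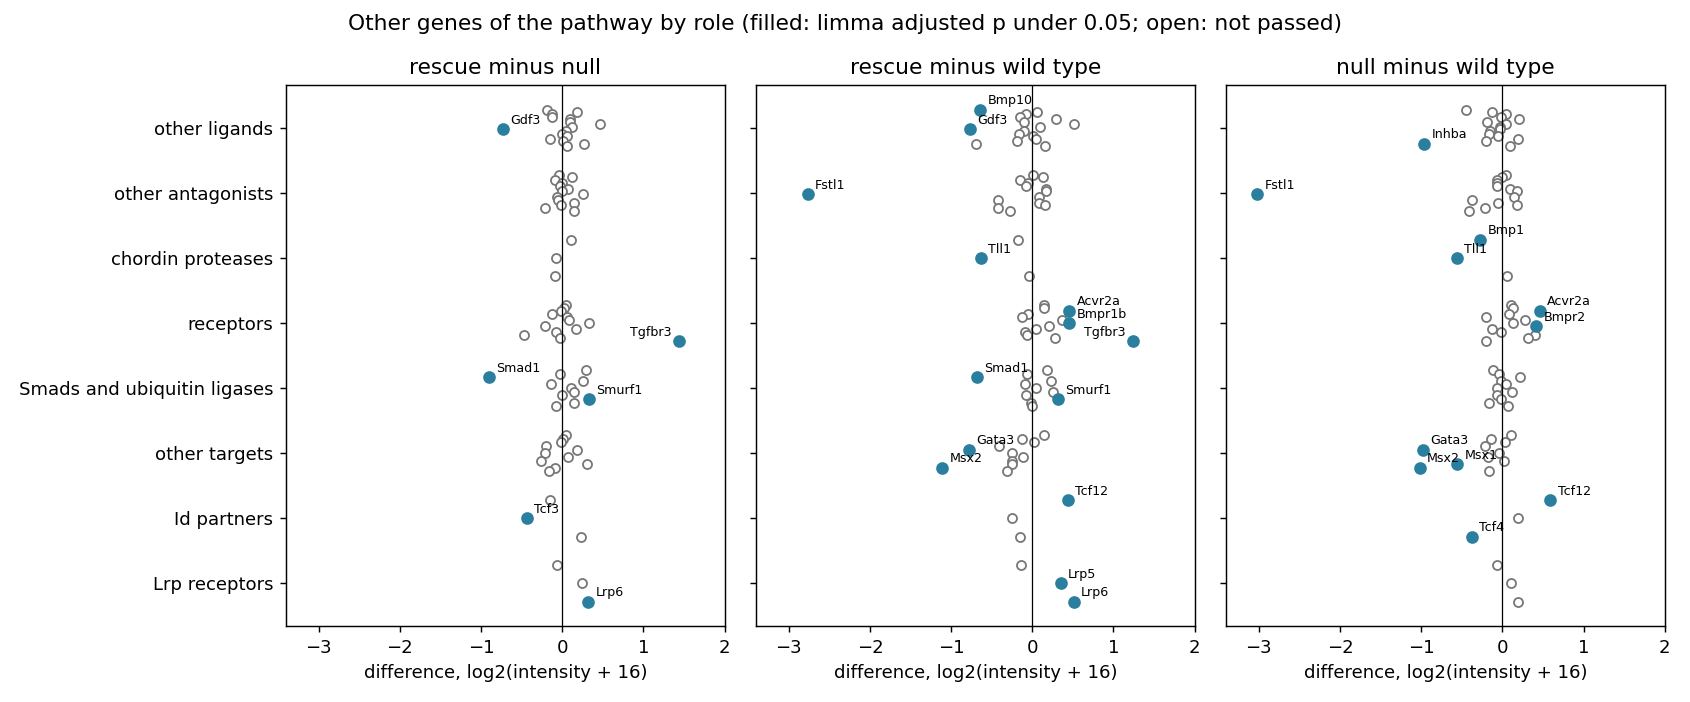
Log2 differences of the 74 other pathway genes by role, in rescue minus null, rescue minus wild type and null minus wild type from left to right; filled points passed at a limma adjusted p under 0.05 and carry the gene symbol, open points did not. Fstl1 lies at -2.76 and -3.02 in both comparisons with wild type, and Tgfbr3 at 1.44 and 1.24 in both comparisons of the rescue line.

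Of 11 other target genes, 0 passed in rescue minus null, 2 fell in rescue minus wild type and 3 fell in null minus wild type. The last 2 counts were 18.2% and 27.3% of the 11. Of all clusters, 5.62%, 5.05% and 6.84% fell. Gata3, an epidermal transcription factor gene, gave 148 and 155 in the rescue line, 120 and 143 in the null line, and 253 and 292 in the wild-type line. Both lines derived from α3-null mice lay below the wild-type line, and the log2 difference was -0.78 ± 0.12 in rescue minus wild type (limma adjusted p = 0.00996) and -0.97 ± 0.12 in null minus wild type (limma adjusted p = 0.00446). The second was stable, and the first was lost without wild-type array 2 (0.0726) and without rescue array 1 (0.0591). Msx2, a homeobox gene, averaged 11.8 ± 5.27 in the rescue, 13.8 ± 6.86 in the null and 43.8 ± 9.10 in the wild-type line (limma adjusted p = 0.0313 and 0.0399 against wild type; 2 and 0 of 6), and Msx1 fell in null minus wild type (-0.55 ± 0.14, limma adjusted p = 0.0448; 1 of 6). Msx2 was dim, below the array median on all 6 arrays, and its calls were lost with a pseudocount of 1 (limma adjusted p = 0.0547 and 0.0735). The Msx1 call was lost with median centring (limma adjusted p = 0.0768). Gata3, Msx1 and Msx2 are named because they passed, so they do not stand for the list. Over all 11, the median log2 difference was -0.25 in rescue minus wild type, with a range of -1.11 to 0.15. In null minus wild type the median was -0.16, with a range of -1.02 to 0.10.

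Of 3 E protein genes, whose products Id proteins bind, 1 fell in rescue minus null and 1 rose in rescue minus wild type. In null minus wild type 1 rose and 1 fell. Beside these few genes, 9.75%, 10.4% and 8.49% of all clusters rose and 5.62%, 5.05% and 6.84% fell in these comparisons. Tcf12 averaged 1316 ± 11.1 in the rescue, 1464 ± 63.1 in the null and 967 ± 42.0 in the wild-type line, and rose against wild type in both (0.44 and 0.59, limma adjusted p = 0.0111 and 0.00369), with the second call stable and the first kept in 3 of 6 fits. Tcf3 fell in rescue minus null (-0.43 ± 0.08, limma adjusted p = 0.0163; 3 of 6), and Tcf4 fell in null minus wild type (-0.38 ± 0.08, limma adjusted p = 0.0266; 2 of 6), a call also lost with quantile normalization (0.0549) and median centring (0.0705). Of 3 Lrp receptor genes, 1 rose in rescue minus null, 2 rose in rescue minus wild type and 0 passed in null minus wild type. The same shares of all clusters stand beside these counts. Lrp4 lay below the array median on all 6 arrays and did not pass in any comparison. Of the co-receptors bound by the Sostdc1 protein, Lrp6 averaged 421 ± 18.9 in the rescue, 333 ± 6.39 in the null and 291 ± 10.6 in the wild-type line. Lrp6 rose in rescue minus wild type (0.51 ± 0.08, limma adjusted p = 0.00959; 3 of 6) and in rescue minus null (0.32 ± 0.08, limma adjusted p = 0.0396; 0 of 6), where it was lost with median centring (0.160). Lrp5 rose in rescue minus wild type (0.35 ± 0.08, limma adjusted p = 0.0318; 0 of 6), a call lost with quantile normalization (0.0922).

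The genes whose levels followed Sostdc1 most closely were sought among 841 clusters with 1 symbol and a range between line means of at least 1 on the log2 scale. By Pearson's r over the 6 arrays the 5 nearest were Pdzrn3 (0.999), Pi15 (0.998), Gpnmb (0.998), Thbs2 (0.997) and Ckmt1 (0.996). The 6 arrays are 3 lines, so any gene high on the null arrays alone scores near 1, and the ranking is a description. Pi15, which encodes a secreted CAP-family protein, gave 37.7 and 31.1 in the rescue line, 2985 and 3247 in the null line, and 22.1 and 32.4 in the wild-type line. Thbs2, a thrombospondin gene, averaged 88.2 ± 3.42, 677 ± 72.4 and 76.1 ± 3.81 in the rescue, null and wild-type lines, and Pdzrn3, a ubiquitin ligase gene, 106 ± 4.36, 295 ± 4.24 and 107 ± 3.35. Of these genes Pi15 came nearest to Sostdc1 in size, with a log2 difference of 6.19 in null minus wild type beside 6.58.

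For Id1 the 5 nearest among 842 clusters were Herpud1 (r = 0.992), Serpinb1b (0.991), Kctd6 (0.988), Lfng (0.987) and Tnfaip8l1 (0.987). Herpud1, a gene of the endoplasmic reticulum stress response, averaged 4013 ± 337 in the rescue, 2811 ± 207 in the null and 1770 ± 49.2 in the wild-type line. Lfng, which encodes a glycosyltransferase that modifies Notch, averaged 1311 ± 371, 818 ± 36.0 and 521 ± 80.7 in the same lines.

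The 6 nearest measured genes of Sostdc1 in the RefSeq order of GRCm38.p6, 3 on each side, were added after the values were seen. Bzw2, a translation regulator gene, averaged 2001 ± 94.3 in the rescue, 2229 ± 183 in the null and 1306 ± 46.3 in the wild-type line, and rose against wild type in both (log2 differences 0.61 and 0.76, limma adjusted p = 0.00689 and 0.00286). Ankmy2, Lrrc72, Meox2, Agmo and Scin did not pass in any comparison, with log2 differences from -0.62 to 0.38 in null minus wild type. None of the 6 had a null level above both other lines by a difference like that of Sostdc1; in rescue minus null they ranged from -0.15 to 0.36, against -6.62 for Sostdc1.

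**Figure D4:**
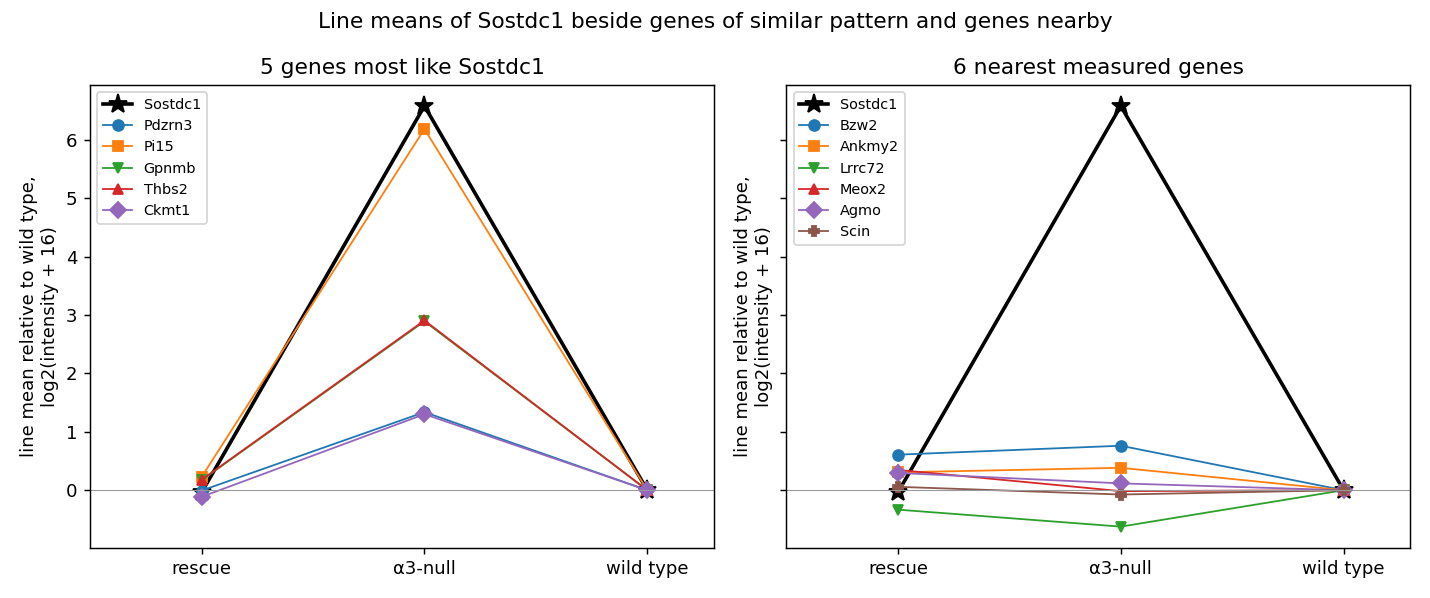
Line means of Sostdc1 (stars) beside the 5 genes nearest in pattern (left) and the 6 nearest measured genes in the genome (right), on the log2(intensity + 16) scale relative to the wild-type mean, for the rescue, α3-null and wild-type lines. Sostdc1 peaks at 6.58 in the null line, Pi15 at 6.19, and the genes nearby stay between -0.62 and 0.76 there.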

How the data were processed

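Total RNA of 3 keratinocyte lines was hybridised to Affymetrix Mouse Exon 1.0 ST arrays, 2 arrays a line. The deposited values are PLIER intensity values of a core-exon analysis, per the labels, and the submitters' processing notes name Affymetrix Expression Console. Another Affymetrix tool for exon arrays is named in the series' design. How background and scale were set, and the genome build, is not given here by any source. The arrays are called biological replicates, but no label says that cultures were separate, so the p-values cover only the spread among these arrays, which may be technical.

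Groups came from the sample titles. The 23332 clusters were analysed as log2(intensity + 16) with no further normalization or filter, with 1 mean per line on all 6 arrays (limma 3.58.1, R 4.3.3; lmFit, eBayes with an intensity trend; 3 residual degrees of freedom). All tests are two-sided, and p-values were adjusted by Benjamini-Hochberg in each comparison; intervals are 95% intervals of the moderated fit. An exact permutation test of 2 against 2 arrays cannot go below p = 0.333. The number of arrays limits the precision. Symbols came from the platform annotation (14996 clusters with 1 symbol, 1019 with several, 7317 with none; none named from several), updated by Entrez identifier against RefSeq (14941 matched, 0 changed).

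The genes and lists were chosen with earlier results of these data known. Named genes are the 10 genes, up to 4 called genes of each pathway role with the smallest adjusted p, and the 5 clusters nearest to Sostdc1 and to Id1 in pattern. On simulated data of 23332 clusters for rescue minus null, 2%, 56%, 98% and 98% of 50 clusters changed by 0.5, 1, 2 and 3 (log2) were recovered, with 11 false among 138 calls; with so few changed clusters the adjustment is stricter there than in the data, so these shares do not carry over to the real comparisons. Alternatives were pseudocounts of 1 and 64, arrays made equal by quantiles or by their median, 2 filters on dim clusters, no variance trend, only the 2 lines compared, a replicate block, a 2-fold threshold and leaving out each array.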

Additional observations from a re-analysis of the deposited data

How the results depend on the processing

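In rescue minus null, 1 of 9 genes other than Sostdc1 was called. The count was 2 with quantile normalization, 3 with median centring, 2 with the filter at intensity 32 (7 genes tested), 4 with the filter at the median cluster (4 tested), 0 without the variance trend, 0 with a 2-fold threshold and 0 to 1 without an array. In rescue minus wild type, 3 genes were called, 1 with the 2-fold threshold and 2 to 4 without an array. For null minus wild type, which was used to choose the genes, the count was 3, with 1 at the 2-fold threshold and 1 to 3 without an array, as a description. Pathway genes numbered 6 in rescue minus null (3 with only the 2 lines compared, 1 with the 2-fold threshold, 2 to 4 without an array). They numbered 14 in rescue minus wild type (8 with only those lines, 3 with the 2-fold threshold, 2 to 9 without an array). In null minus wild type they numbered 11 (5 without the variance trend, 2 with the 2-fold threshold, 3 to 9 without an array). Fewer clusters tested or fewer arrays are part of the filters and the fits without an array. For the others the cause was not tested. The share of all clusters called was taken for the main fit only. The counts under the alternatives therefore have no background beside them, and nothing is read from them about these genes.

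Signs turned for 5 differences that had not passed. In rescue minus null, Bmp2 was -0.17 without null array 1 (range without an array -0.17 to 0.42). Grem1 was 0.19 without null array 2 and 0.06 without rescue array 1 (range -0.245 to 0.19), and Nog 0.07 and 0.24 without these arrays (range -0.37 to 0.24). Sostdc1 in rescue minus wild type was 0.13 without rescue array 1 (range -0.21 to 0.13). Bmp2 in null minus wild type was 0.0524 with median centring, 0.01 without wild-type array 2 and 0.27 without null array 1 (range -0.32 to 0.27).

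Replicate numbers did not mark pairs: the deviations of same-numbered arrays correlated at 0.03, 0.05 and -0.02 across lines. With the replicate block the genes called were 1, 3 and 2, and the pathway genes 4, 13 and 8, in rescue minus null, rescue minus wild type and null minus wild type. Averaging several clusters of a symbol was not run, since each gene of the lists had 1 cluster. Bmp2, Bmp4, Bmp7, Grem1 and Nog lay below the median of every array, which limits how well their differences are resolved.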

Other observations

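Among markers of hair follicle placodes and stem cells, where BMP antagonism is best known, 1 of 8 fell in each comparison, a share of 12.5%, against 15.4%, 15.4% and 15.3% of all clusters called in rescue minus null, rescue minus wild type and null minus wild type. Sox9, a follicle stem cell factor gene, averaged 415 ± 34.1 in the rescue and 408 ± 11.5 in the null line, against 580 ± 52.0 in the wild-type line, and fell against wild type in both (log2 differences -0.47 and -0.49, limma adjusted p = 0.0266 and 0.0222). Foxc1, a transcription factor gene of activated follicle stem cells, averaged 555 ± 2.83 in the rescue line against 767 ± 29.8 in the null line, and fell there (-0.45, limma adjusted p = 0.00986). Of 8 dermal papilla markers, Vcan, which encodes versican, fell against wild type in both lines, at 12.9 ± 0.305 in the rescue and 12.8 ± 0.259 in the null line against 118 ± 9.92 in the wild-type line (limma adjusted p = 0.000265 and 0.000273), and the other 7 did not pass in any comparison. Trp63, which encodes the epidermal regulator p63, fell in rescue minus null, at 867 ± 4.34 in the rescue line against 1248 ± 72.3 in the null line (-0.52, limma adjusted p = 0.00716). It also rose in null minus wild type (0.29, limma adjusted p = 0.0401), with 1019 ± 16.4 in the wild-type line. In that comparison 5 of 13 keratinocyte markers rose and 0 fell, beside 8.49% and 6.84% of all clusters. These marker calls, and that of Bzw2 above, were not checked under the alternatives or without an array.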
